A study of Homo sapiens with 6 samples.

Results

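The transcripts of the TGF-beta pathway core were examined in HTori-3.1, a human thyroid cell line that the sample labels describe as normal. The 10 genes are the ligands TGFB1, TGFB2 and TGFB3, the receptors TGFBR1, TGFBR2 and TGFBR3, the mediators SMAD2 and SMAD3, the inhibitory SMAD7, and TGFBI, a target gene. They were given by name and matched by symbol, and all 10 were found among the 22354 loci of the count table and passed the filter on low counts, which kept 14860 loci. RNA was sequenced from 3 samples labelled control, with a wild type genotype, and 3 labelled BMAL1 knockout, whose cells received Cas9 and a guide RNA against BMAL1. The virus that carried them was a lentivirus, followed by puromycin selection and the picking of single clones. Whether the control cells also received a virus, and whether the 3 samples of a group came from separate clones or cultures, is not given in the sources used here, so the p-values measure only the spread between these samples. A difference between clones and an effect of the knockout cannot be told apart. Etoposide, which traps topoisomerase on broken DNA, was given to all 6 samples at 2 μM; the treatment label gives 12 h and the protocol gives 24 h.

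TGF-beta ligands are secreted in a latent complex and, once released, bind TGFBR2, which recruits and phosphorylates TGFBR1. TGFBR1 then phosphorylates SMAD2 and SMAD3, which enter the nucleus in complexes with SMAD4 that bind DNA. SMAD7 is induced by the signal and blocks the receptor. In thyroid follicular cells TGF-beta is known as an inhibitor of growth and of differentiated function. BMAL1 pairs with CLOCK and binds the E-box CACGTG.

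Control replicates 1 to 3 held 26893063, 27029060 and 28513703 counts, and BMAL1 knockout replicates 1 to 3, named as labelled, held 43148059, 29860233 and 43563391. Levels are given as CPM, counts of a gene scaled to library size (counts per 1e+06) after TMM normalization, and differences as log2 fold changes, positive where the libraries labelled BMAL1 knockout were higher than the control libraries. The targeted gene was read first. BMAL1 was measured at 11.3, 12.2 and 14.6 CPM in control replicates 1 to 3 and at 17.9, 19.8 and 19.4 CPM in the libraries labelled BMAL1 knockout. Each of the last 3 values exceeded the highest control, so the transcript was not lower in the libraries labelled BMAL1 knockout. BMAL1 differed by 0.58 on the log2 scale (standard error 0.114, adjusted p = 0.0237, edgeR quasi-likelihood test with Benjamini-Hochberg adjustment). That adjusted p was 0.0304 without control replicate 3 and 0.0153 without BMAL1 knockout replicate 1, and lay between 0.0598 and 0.129 without each of the other 4 libraries. BMAL1 shares 421 exon bases with an antisense RNA of the annotation. The use of strand in the counting is not given in the sources used here, so reads in the shared bases cannot be told apart. RNA levels do not show whether the protein was lost; the methods of the study describe a check of the clones by western blot, which was not analysed here. Every direction given here is that of the libraries as labelled.

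Markers of the labelled cell type were mixed. Among 10 thyroid follicular genes, PAX8 was the most abundant, at 133 ± 15.4 CPM in the libraries labelled control and 110 ± 19.1 CPM in those labelled BMAL1 knockout (SD, n = 3 each), and FOXE1 ranged from 47.5 to 48.8 CPM in the former and from 36.2 to 42.1 CPM in the latter. PAX8 shares 1651 exon bases with PAX8-AS1 on the opposite strand, so reads in the shared bases cannot be told apart. The differentiated markers TG, TSHR, SLC5A5 and DUOX2 were each at or under 0.485 CPM in every library, and NKX2-1 had 0 reads. The summed level of the thyroid list was 173, 174 and 201 CPM across control replicates 1 to 3, against 130, 150 and 173 CPM across BMAL1 knockout replicates 1 to 3, and 0 of its 3 tested genes were called.

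At an adjusted p under 0.05 (edgeR quasi-likelihood, Benjamini-Hochberg over the 14860 loci), 0 of the 10 genes were called, where 352 of all loci kept were called, or 2.37%. At an unadjusted p under 0.05, TGFB2 alone was counted, 1 of 10, against 16.9% of all loci kept. DESeq2 called 0 of the 10 (4.47% of the loci it tested), limma-voom called 0 (2.1%), and 0 passed a fold change over 2 with an unadjusted p under 0.01 (0.915%). The groups were apart, with no overlap in CPM, for 1 gene, TGFBR2, against 23.3% of all loci kept. The median log2 fold change of the 10 genes was -0.09, with 7 below 0 and 3 above, beside 0.01 over all loci kept, of which 47.7% were below 0. The 95% confidence intervals of all 10 lay inside a fold of 1.5 in either direction, and 9 of them held 0. The intervals differ in width between genes, and a p above the threshold does not show that values were equal.

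**Figure D1:**
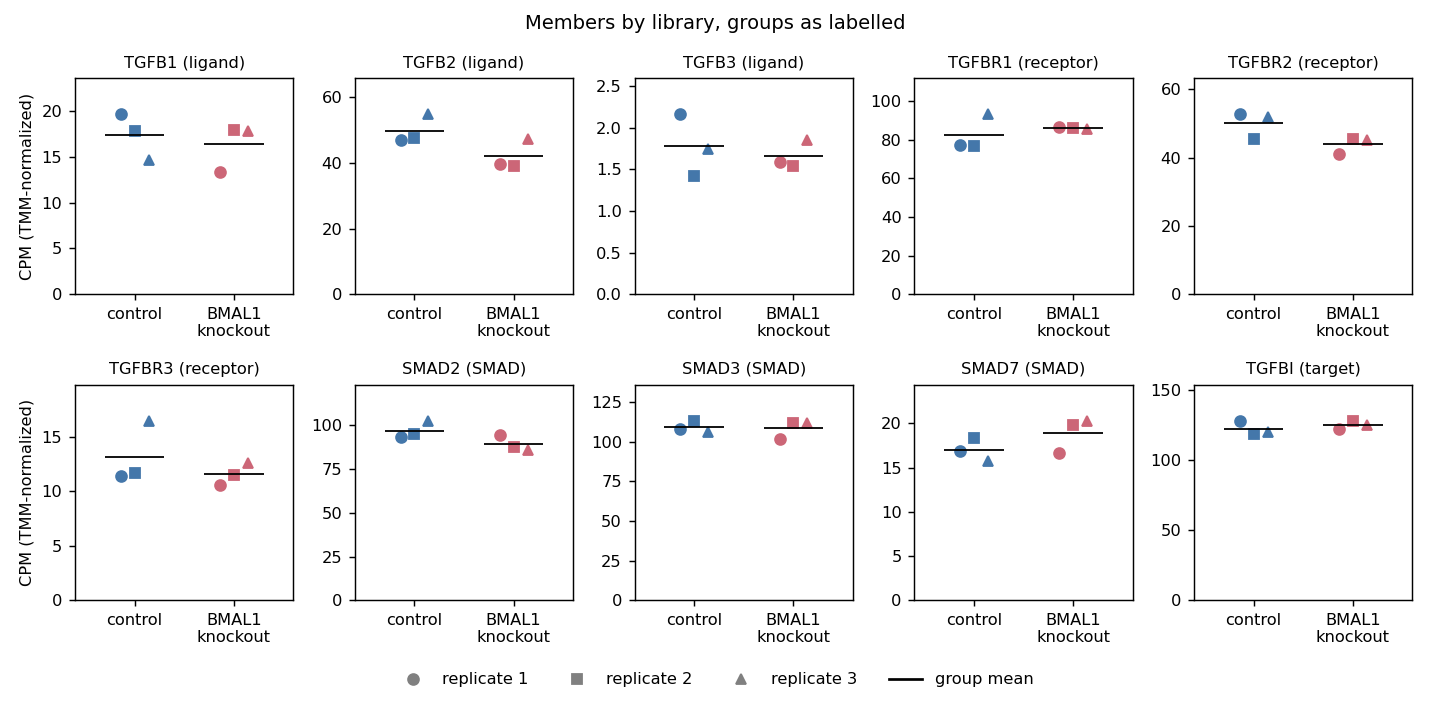
Each panel plots the TMM-normalized CPM of 1 gene in the 6 libraries, grouped as labelled; symbols mark the replicate number and black lines the mean of each group, and every axis starts at 0. The groups overlap in every panel but that of TGFBR2, where the highest library labelled BMAL1 knockout, at 45.5 CPM, lies just under the lowest labelled control, at 45.6 CPM.

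Of the ligands, TGFB2 had the smallest p of the 10 genes. TGFB2, on chromosome 1 from 218345336 to 218444619 of hg38, was measured at 46.9, 47.7 and 54.8 CPM in control replicates 1 to 3 and at 39.6, 39.2 and 47.3 CPM in the libraries labelled BMAL1 knockout. Replicate 3 was the highest of its group on both sides, and BMAL1 knockout replicate 3 lay above control replicate 1, so the groups overlapped. The log2 fold change of TGFB2 was -0.24 (95% confidence interval -0.46 to -0.02, unadjusted p = 0.0326, adjusted p = 0.243, edgeR quasi-likelihood with Benjamini-Hochberg adjustment). Leaving out 1 library at a time gave values between -0.34 and -0.17. The 40 nearest kept genes on the chromosome had a median of 0.06, on the other side of 0. TGFB2 shares 701 exon bases with the antisense TGFB2-AS1 and 1371 with TGFB2-OT1 on its own strand. TGFB3 and SMAD3 share 163 and 182 exon bases with antisense RNAs. In the shared bases, reads of each gene and its partner cannot be told apart.

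TGFB1, the ligand that platelets store in quantity, lies on chromosome 19 from 41301587 to 41353922. TGFB1 was measured at 19.7, 17.8 and 14.6 CPM in control replicates 1 to 3 and at 13.4, 18.0 and 17.9 CPM in the libraries labelled BMAL1 knockout. The lowest library of the 6 was BMAL1 knockout replicate 1 and the next was control replicate 3, and the groups overlapped. Its log2 fold change of -0.09 (standard error 0.142) turned to 0.01 without control replicate 1 and to 0.05 without BMAL1 knockout replicate 1. TGFB1 shares 215 exon bases with HNRNPUL1 on the opposite strand. The use of strand in the counting is not given in the sources used here, so reads in these shared bases cannot be told apart. HNRNPUL1 was measured at 219 ± 10.8 and 204 ± 13.7 CPM (SD, n = 3 each).

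TGFB3 was the scarcest of the 10 genes, with 58, 38 and 49 reads for control replicates 1 to 3 against 68, 47 and 82 reads for BMAL1 knockout replicates 1 to 3. This amounts to 2.16, 1.42 and 1.75 CPM and to 1.59, 1.54 and 1.85 CPM. The values of the libraries labelled BMAL1 knockout lay within the range of the control libraries. The low counts leave the widest interval of the 10 genes, from -0.56 to 0.39 around a log2 fold change of -0.09. TGFB3 lies on chromosome 14 from 75958097 to 75983011.

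The makeup of the ligand transcripts was read by dividing counts by the length of the canonical transcript and taking each ligand's share of the sum over the 3 ligands. TGFB2 took 50.9%, 54.3% and 61.8% in control replicates 1 to 3, against 56.2%, 49.1% and 53.6% on the BMAL1 knockout side. TGFB1 took between 34.8% and 45.1% among the control libraries and up to 47.6% among those labelled BMAL1 knockout. With this length TGFB2 was the largest share in each library and TGFB3, between 2.77% and 4.01%, the smallest. With the median length of the coding transcripts, chosen after seeing the data, TGFB1 was above TGFB2 in each of the 6 libraries (mean 13.5 and 8.41 CPM per kb), so which of the pair leads depends on the length. The shares of the libraries labelled BMAL1 knockout overlapped those of the control libraries for all 3 ligands. The group means of TGFB2 differed by -2.73 percentage points, less than the SD of 5.56 among the control libraries, and by 0.322 without control replicate 3. The makeup was not tested.

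**Figure D2:**
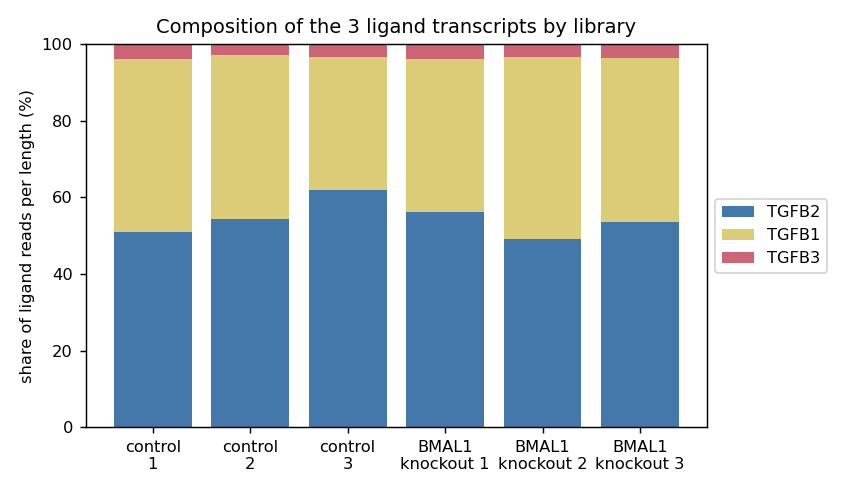
Stacked bars give the share in percent of TGFB2, TGFB1 and TGFB3 among the ligand reads per length in each of the 6 libraries, named as labelled. With the canonical transcript as length, TGFB2 takes between 49.1% and 61.8%, highest in control replicate 3; with the median coding length TGFB1 is above TGFB2.

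Of the receptors, TGFBR2, the ligand-binding kinase, lies on chromosome 3 from 30606601 to 30694142. TGFBR2 was measured at 52.7, 45.6 and 51.8 CPM in control replicates 1 to 3 and at 41.1, 45.5 and 45.1 CPM in the libraries labelled BMAL1 knockout. All 3 libraries labelled BMAL1 knockout were lower, by a margin of less than 1 CPM at its narrowest, since control replicate 2 sat apart from the other 2 of its group. TGFBR2 had a log2 fold change of -0.19 with a standard error of 0.0884 (unadjusted p = 0.0539, adjusted p = 0.304, edgeR quasi-likelihood with Benjamini-Hochberg adjustment). With each library left out in turn it lay between -0.25 and -0.15, and the 40 nearest kept genes had a median of 0.03.

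TGFBR1, the signalling kinase of the receptor pair, lies on chromosome 9 from 99104038 to 99154192. TGFBR1 was measured at 77.3, 76.9 and 93.1 CPM in control replicates 1 to 3 and at 86.6, 85.9 and 85.8 CPM in the libraries labelled BMAL1 knockout. The libraries labelled BMAL1 knockout were close together, with an SD of 0.463 CPM against 9.24 CPM among the control libraries, and lay between control replicate 3 and the other 2. The log2 fold change was 0.06, and 0.16 without control replicate 3. TGFBR3, also called betaglycan, a co-receptor that presents TGFB2, lies on chromosome 1 from 91680343 to 91906335. TGFBR3 was measured at 11.4, 11.7 and 16.5 CPM in control replicates 1 to 3 and at 10.6, 11.5 and 12.6 CPM in the libraries labelled BMAL1 knockout. Control replicate 3 again stood highest, and the log2 fold change of -0.19 became 0.01 without it. The part of that library in these differences is given by those values and was not tested further.

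Of the receptor-activated SMADs, SMAD3 had the smallest log2 fold change in size of the gene set. SMAD3, on chromosome 15 from 67063763 to 67195173, was measured at 108, 113 and 106 CPM in control replicates 1 to 3 and at 102, 112 and 112 CPM in the libraries labelled BMAL1 knockout. The groups overlapped, and the log2 fold change of -0.01 had a 95% confidence interval from -0.17 to 0.15. SMAD2, on chromosome 18 from 47808957 to 47931146, was measured at 93.6, 94.9 and 103 CPM and at 94.6, 87.6 and 85.7 CPM. Only BMAL1 knockout replicate 1 reached into the range of the control libraries. The log2 fold change of SMAD2 was -0.12 (standard error 0.0774, adjusted p = 0.468, edgeR quasi-likelihood with Benjamini-Hochberg adjustment). With each library left out in turn that fold change lay between -0.166 and -0.0743.

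SMAD7, the inhibitory SMAD, lies on chromosome 18 from 48919853 to 48950965. SMAD7 was measured at 16.9, 18.3 and 15.7 CPM in control replicates 1 to 3 and at 16.6, 19.9 and 20.3 CPM in the libraries labelled BMAL1 knockout. BMAL1 knockout replicates 2 and 3 lay above all control libraries and replicate 1 lay among them. The log2 fold change was 0.15 (95% confidence interval -0.09 to 0.40), between 0.10 and 0.24 with each library left out. TGFBI, an extracellular matrix protein named for its induction by TGF-beta, lies on chromosome 5 from 136028988 to 136063818. TGFBI was measured at 128, 119 and 120 CPM and at 122, 128 and 125 CPM, with overlapping groups and a log2 fold change of 0.03 (95% confidence interval -0.13 to 0.19).

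**Figure D3:**
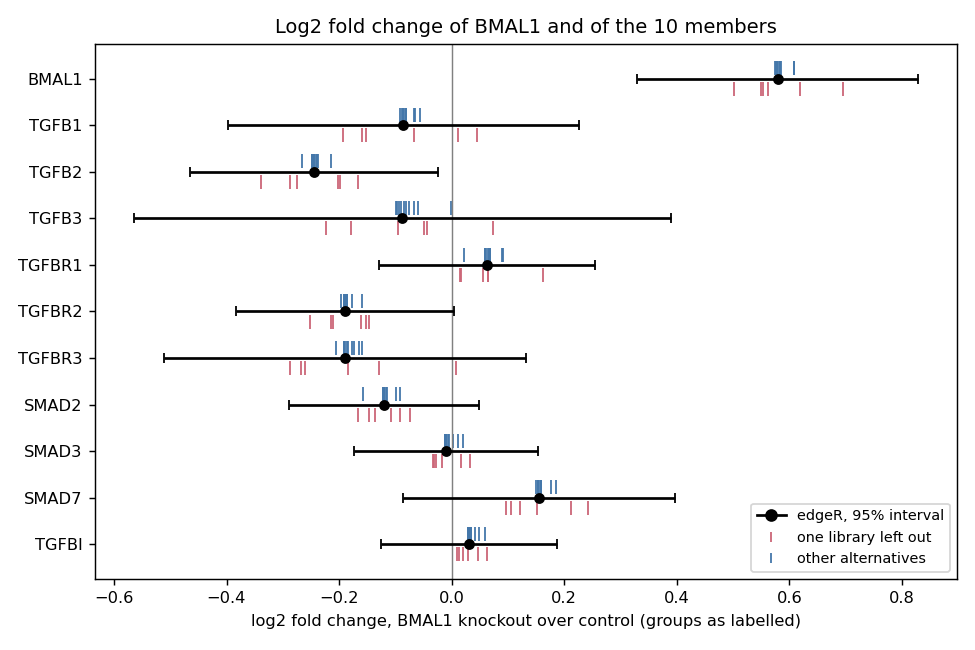
Black points and bars give the log2 fold change of BMAL1 and of each of the 10 genes from edgeR with its 95% confidence interval; red ticks are fits with each library left out in turn and blue ticks the other alternatives. The intervals of 9 of the 10 genes hold 0, that of TGFB2 ends at -0.02, and red ticks fall on both sides of 0 for TGFB1, TGFB3, TGFBR3 and SMAD3.

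Levels of different genes were compared as CPM per kb of the canonical transcript, averaged over the 6 libraries. TGFBI led at 45.7 CPM per kb, followed by SMAD3 at 16.8, TGFBR1, whose libraries lay between 11.8 and 14.3 CPM per kb, and TGFBR2 at 10.4 CPM per kb. TGFB2 at 7.82, TGFB1 at 6.08 and SMAD7 at 5.38 CPM per kb followed, and TGFBR3 at 1.95 and TGFB3 at 0.501 CPM per kb closed the order. The ranges over the 6 libraries overlapped for TGFBR2 and TGFB2, TGFB2 and TGFB1, TGFB1 and SMAD7, and SMAD2 and TGFBR3. Within each of the 6 libraries, however, TGFBR2 was above TGFB2, TGFB2 above TGFB1 and SMAD2 above TGFBR3. TGFB1 was above SMAD7 except in BMAL1 knockout replicate 1, so among these pairs only that order differed between libraries. SMAD2 stood at 2.69 CPM per kb with a canonical transcript of 34626 bases. With the median length of its coding transcripts, 1378 bases, an alternative chosen after seeing the data, SMAD2 was at 67.6 CPM per kb and came next after TGFBI. With that length SMAD7 was at 14.8 CPM per kb, with libraries that overlapped those of TGFBR1, and the means of TGFB1, TGFBR2 and TGFB2 were 13.5, 10.3 and 8.41 CPM per kb. The ranges of neighbours from SMAD7 down to TGFB2 overlapped in that order. Within each of the 6 libraries TGFB1 was above TGFBR2 and TGFBR2 above TGFB2. The order of SMAD7, TGFBR1 and TGFB1 differed between libraries. The order between TGFBI and TGFBR3 thus depends on the length used.

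**Figure D4:**
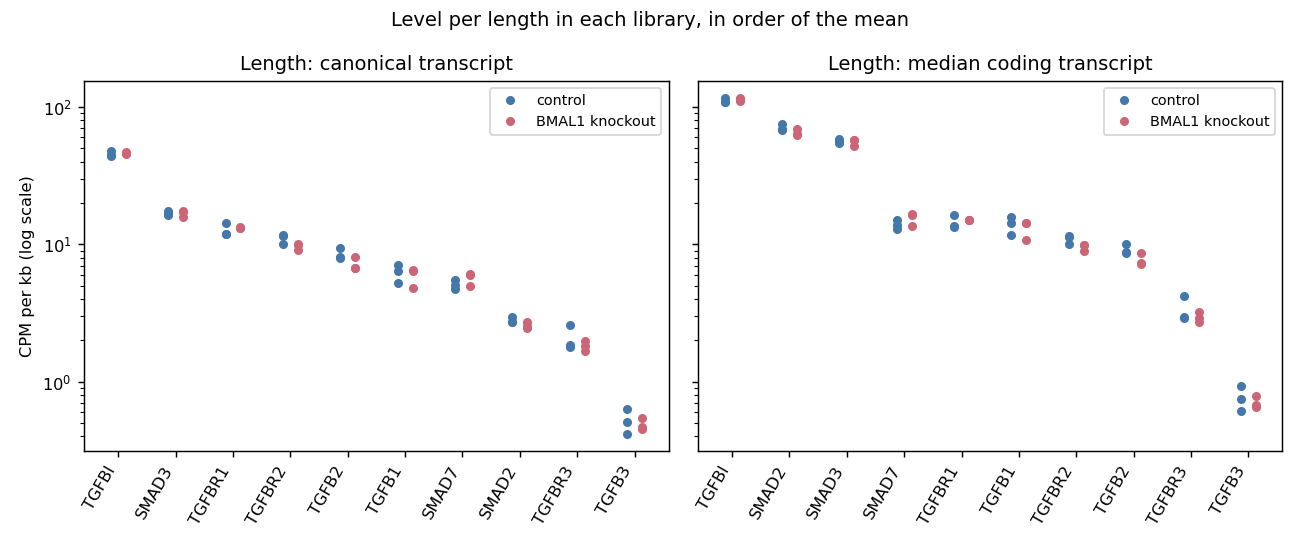
CPM per kb on a log axis in each of the 6 libraries, by gene in order of the mean, with the canonical transcript as length on the left and the median coding transcript on the right; colours mark the groups as labelled. TGFBI is highest and TGFB3 lowest with both lengths, while SMAD2 moves from 2.69 to 67.6 CPM per kb and TGFB1 from under TGFB2 to above it.

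The profile of TGFB2 over the 6 libraries was compared with those of 9587 other named genes whose mean level reached 10 CPM, as the root mean square difference of centred log2 CPM. The 5 nearest were ZEB2 at 0.0272, ZBTB2 at 0.0385, AHCYL1 at 0.0429, PLCB4 at 0.0459 and ROR1 at 0.0478. ZEB2, a repressor of epithelial genes, was measured at 46.7, 46.7 and 52.7 CPM in control replicates 1 to 3, against 39.9, 38.1 and 45.1 CPM on the BMAL1 knockout side. Replicate 3 was the highest of both groups, as for TGFB2. These genes were picked for their likeness, so it is no test.

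Promoter windows of RefSeq (GRCh38.p14), from 250 bases before to 50 after each start, matched all 10 genes, with 26 windows. The E-box CACGTG, which reads the same on both strands, was in 3 of these 26 windows, or 11.5%, and in 7.26% of all 35116 windows. The windows that hold it are shown for the 3 genes, with the E-box in capitals and 30 bases on each side.
TGFB2, chr1:218345257-218345322, forward strand, E-box at -49 from the start: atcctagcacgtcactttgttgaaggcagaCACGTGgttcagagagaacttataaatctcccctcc
TGFB3, chr14:75982996-75983061, reverse strand, E-box at -20: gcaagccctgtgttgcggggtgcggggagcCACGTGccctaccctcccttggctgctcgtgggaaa
SMAD3, chr15:67065399-67065464, forward strand, E-box at -173: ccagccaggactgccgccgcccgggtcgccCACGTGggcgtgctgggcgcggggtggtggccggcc
The 3 genes of the set with the E-box had log2 fold changes of -0.24, -0.09 and -0.01, and 0 of them were called. Of the other pathway lists 71 genes were matched, with 134 windows, of which 4, or 2.99%, held the E-box. They belong to SMAD1, ACVR1B and TSC22D1, which had log2 fold changes of 0.08, -0.07 and -0.19 and were not called, and to SMAD9, called higher. The palindromic SMAD element GTCTAGAC, the same on both strands and with no overlap with the E-box letters, was in 0 of the 26 windows and in 0.202% of all windows. In the 134 windows of the other pathway lists there was 1 match, or 0.746%, in SMAD6 at -12 (chr15:66702194-66702261, forward strand), shown in capitals.
SMAD6: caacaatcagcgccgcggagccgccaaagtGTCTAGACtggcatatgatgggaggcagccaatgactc
A match describes the letters of the window and shows no binding.

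The rest of the pathway was read from 5 lists that hold 89 genes, of which 80 were tested, with 5 higher calls and 5 lower calls by adjusted p under 0.05 (edgeR quasi-likelihood, Benjamini-Hochberg). Over all loci kept, 1.01% were higher and 1.36% lower. The median log2 fold change of the 80 genes was -0.03, and the lists were chosen with results of these data known. All 10 called genes were higher or lower in all 3 libraries of their group, and 7 of them lost the call without at least 1 library.

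Among 11 other SMADs and SMAD partners tested, 2 were higher and 0 lower. SMAD9, a receptor-activated SMAD of the BMP branch, rose from 5.99 ± 0.319 to 12.0 ± 0.857 CPM (SD, n = 3 each), or by 1.00 on the log2 scale (standard error 0.118, adjusted p = 0.00200, edgeR quasi-likelihood with Benjamini-Hochberg adjustment). SMAD6, an inhibitory SMAD that acts mainly on BMP signals, rose from 17.1 ± 0.693 to 26.3 ± 3.93 CPM, by 0.62 (adjusted p = 0.0201 from the same edgeR test). The adjusted p of SMAD9 was under 0.05 in all 16 alternative fits. That of SMAD6 was 0.00171 without BMAL1 knockout replicate 1 and between 0.0609 and 0.0988 without each of the other 5 libraries. CREBBP, an acetyltransferase that SMADs recruit, was measured at 265 ± 6.08 and 243 ± 37.2 CPM.

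Of 8 tested genes of ligand latency and activation, 1 was lower and 0 higher. THBS1, a matrix protein that can release the active ligand from its latent complex, was measured at 269, 256 and 264 CPM in control replicates 1 to 3 and at 184, 200 and 205 CPM on the BMAL1 knockout side. All 3 of the latter were lower, and THBS1 fell by 0.42 on the log2 scale (standard error 0.0732, adjusted p = 0.0128, edgeR quasi-likelihood with Benjamini-Hochberg adjustment). Without BMAL1 knockout replicates 1 and 3 that adjusted p was 0.00422 and 0.0253, and without each other library it no longer passed, up to 0.0695. THBS1 shares 411 exon bases with THBS1-AS1 and 448 with FSIP1 on the opposite strand. FSIP1 was measured at 1.88 ± 0.594 and 1.85 ± 0.134 CPM. ITGAV and ITGB8, subunits of integrins that activate the latent ligand, were measured at 266 ± 43.8 and 260 ± 2.37 CPM, and at 146 ± 34.8 and 160 ± 18.2 CPM.

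Of 15 tested negative regulators, 1 was lower and 0 higher. NEDD4L, a ubiquitin ligase that acts on activated SMAD2 and SMAD3, fell from 128 ± 1.27 to 97.9 ± 0.499 CPM, a log2 fold change of -0.38 (adjusted p = 0.0146, edgeR quasi-likelihood with Benjamini-Hochberg adjustment). Without BMAL1 knockout replicates 1 and 3 and control replicate 3 that adjusted p was 0.00503, 0.0446 and 0.0450, and without each other library between 0.0727 and 0.0977. With the replicate number as a block it was 0.0619 in edgeR. NEDD4L shares 824 and 177 exon bases with antisense RNAs, and reads in the shared bases cannot be told apart. The 40 nearest kept genes of NEDD4L on chromosome 18 had a median of -0.12, with 32 of them lower. Their part in the fall of NEDD4L was not tested. STRAP and FKBP1A, which bind the receptor complex and restrain it, were measured at 425 ± 20.1 and 393 ± 22.4 CPM, and at 295 ± 4.70 and 251 ± 4.81 CPM. FKBP1A was lower in all 3 libraries labelled BMAL1 knockout, with an adjusted p of 0.101 in edgeR (Benjamini-Hochberg). Over the 16 alternative fits that of FKBP1A ranged from 0.0155 to 0.331, under 0.05 with DESeq2 (0.0155), with the GC trend removed (0.0209) and without BMAL1 knockout replicate 1 (0.0300).

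Of 10 other receptors and co-receptors tested, 0 were called by edgeR at an adjusted p under 0.05, with 3 at an unadjusted p under 0.05. ENG, endoglin, a co-receptor, was measured at 77.8 ± 4.48 and 59.6 ± 6.04 CPM (adjusted p = 0.0517, edgeR quasi-likelihood with Benjamini-Hochberg adjustment). Of the 16 alternative fits, 8 put ENG under 0.05, and the adjusted p over all 16 ranged from 0.00429 to 0.214. BMPR1A and BMPR2, receptors of the BMP branch, were measured at 69.5 ± 7.03 and 76.3 ± 1.73 CPM, and at 133 ± 12.5 and 137 ± 12.0 CPM.

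Of 36 tested target genes, 3 were higher and 3 lower. At an unadjusted p under 0.05 in edgeR there were 19 of the 36, against 16.9% of all loci kept, and the groups were apart for 21, against 23.3%. In the lists of latency, other SMADs and negative regulators, 1, 3 and 4 genes had an unadjusted p under 0.05. ID2, an inhibitor of differentiation factors, rose from 13.5 ± 1.41 to 23.3 ± 0.795 CPM, by 0.79 on the log2 scale (adjusted p = 0.00305, edgeR quasi-likelihood with Benjamini-Hochberg adjustment), where its 33 nearest kept genes had a median of 0.16. ID2 is induced by BMP signals and repressed by TGF-beta in epithelial cells. CDKN2B, the cell cycle inhibitor p15, rose by 0.66 (adjusted p = 0.0160, the same edgeR test). ACTA2, smooth muscle actin, rose from 1.82 ± 0.190 to 3.51 ± 0.277 CPM (adjusted p = 0.0182, the same edgeR test). ACTA2 shares 387 exon bases with FAS and 1638 with ACTA2-AS1 on the opposite strand, and 401 with an RNA on its own strand. Reads in these shared bases cannot be told apart. FAS rose from 34.3 ± 2.25 to 52.3 ± 6.12 CPM (adjusted p = 0.0109, the same edgeR test), and its adjusted p was 0.0616 without control replicate 2 and 0.0711 without control replicate 3. TNC, the matrix protein tenascin C, fell from 224 ± 4.44 to 139 ± 14.3 CPM, by 0.70 on the log2 scale (adjusted p = 0.00221, the same edgeR test). ANGPTL4 fell from 15.5 ± 2.24 to 10.5 ± 1.01 CPM and SPHK1, which makes sphingosine 1-phosphate, from 47.5 ± 1.39 to 36.7 ± 2.85 CPM (adjusted p = 0.0448 and 0.0470, the same edgeR test). On the opposite strand TNC shares 129 exon bases with DELEC1, ID2 shares 145 with ID2-AS1 and SPHK1 shares 59 with PRPSAP1. Reads in the shared bases of each such pair cannot be told apart. The adjusted p of TNC and of ID2 was under 0.05 in all 16 alternative fits. Those of the other 4 were 0.00610 for CDKN2B, 0.0302 for ACTA2, 0.0233 for ANGPTL4 and 0.0374 for SPHK1 without BMAL1 knockout replicate 1. They were also under 0.05 for ACTA2 without BMAL1 knockout replicate 3 (0.0295) and for ANGPTL4 without control replicate 3 (0.0483), and over 0.05 for all 4 genes without each other library, up to 0.0768, 0.0867, 0.180 and 0.197 in the same order. ANGPTL4 also lost its call with library size only (adjusted p = 0.0535, edgeR), limma-voom (0.0534) and thinning (0.0679), and SPHK1 with library size only (0.0787) and the replicate number as a block (0.102).

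**Figure D5:**
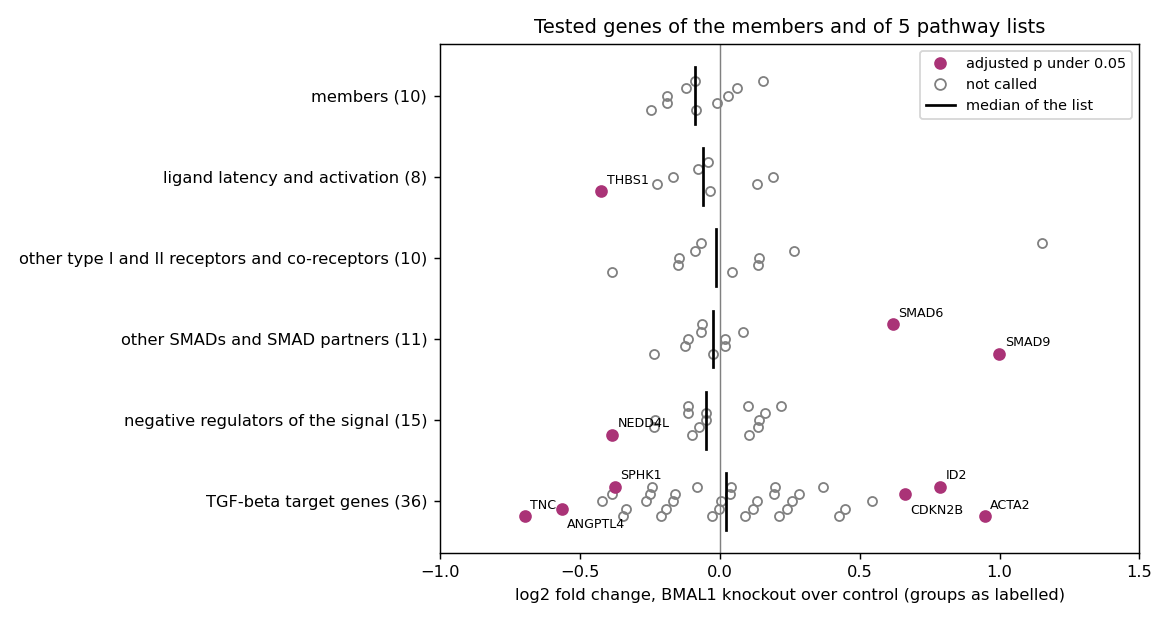
Each point is the log2 fold change of 1 tested gene, libraries labelled BMAL1 knockout over control, on separate lines for the 10 genes and the 5 pathway lists; filled points are genes with an adjusted p under 0.05 and black bars the median of a line. The line of the 10 genes has no filled point and spans -0.24 to 0.15, and the filled points of the target genes lie on both sides of 0.

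Markers of other cell types were read beside these results. Of the epithelial list KRT8 was the most abundant, and KRT18, the partner of KRT8 in filaments, fell by 0.50 on the log2 scale (adjusted p = 0.00588, edgeR quasi-likelihood with Benjamini-Hochberg adjustment); EPCAM and CDH1 were under 1 CPM in every library. Without control replicate 2 the adjusted p of KRT18 in the same edgeR test was 0.0561. KRT18 shares 525 exon bases with KRT8 on the opposite strand, so reads in the shared bases cannot be told apart. KRT8 was measured at 1408 ± 41.4 and 1157 ± 8.11 CPM, lower in all 3 libraries labelled BMAL1 knockout (log2 fold change -0.28, adjusted p = 0.0517 in edgeR, under 0.05 in 4 of 16 alternative fits, from 0.000498 to 0.254). KRT7 and KRT19 of the same list had log2 fold changes of 0.10 and 0.23, with overlapping groups. The summed level of the list was 2990, 3044 and 2897 CPM across control replicates 1 to 3, against 2540, 2482 and 2563 CPM on the BMAL1 knockout side. Of the fibroblast list COL1A1 was the most abundant, at 860 ± 77.9 and 859 ± 141 CPM, while DCN and LUM had 0 reads; COL1A1, COL1A2 and COL3A1 are also in the list of target genes. The sum of the fibroblast list was 922, 927 and 790 CPM and then 718, 935 and 990 CPM. The endothelial list, led by VWF, summed to 2.05, 1.83 and 2.21 CPM and then 1.34, 1.24 and 1.72 CPM, with EMCN at 0 reads. Of its 2 tested genes 0 were called. The C cell list, led by CHGA, summed to at most 0.298 CPM, with CALCA at 0 reads. In the immune list, led by CD68, CD3E and MS4A1 had 0 reads, and PTPRC was lower, at 6.40 ± 0.145 and 2.36 ± 0.341 CPM (adjusted p = 0.00107, edgeR quasi-likelihood with Benjamini-Hochberg adjustment). The immune list summed to 19.0, 19.6 and 17.2 CPM and then 13.8, 11.4 and 12.0 CPM. In bulk RNA, fewer cells that express a gene and less RNA per cell cannot be told apart, and the part of these markers in the results was not tested.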

How the data were processed

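RNA-seq was read from 6 libraries, 3 of each labelled group. The authors deposited raw counts of uniquely mapped reads per gene on hg38, not normalized; their notes name fastp 0.20.1 and HISAT2 2.0.4. The gene annotation and the use of strand are not given in the sources used here. Symbols were matched to GENCODE release 44 for positions, lengths and overlaps, and 19993 of 22354 loci matched. In edgeR 4.0.16 (R 4.3.3) the counts were filtered (filterByExpr), TMM-normalized and tested by group alone with a 2-sided quasi-likelihood test (robust), and p-values were adjusted by Benjamini-Hochberg over 14860 loci. The steps were tested on simulated data. Standard errors and 95% intervals come from the same fit. The common dispersion gave a biological coefficient of variation of 0.108. Replicates of a group differed by 5.41 to 45.0 times the counting variance, so none was a copy of another.

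The 10 genes and all lists were chosen with earlier results of these data known. Named from each list are called genes (up to 8, smallest p first), filled up to 3 with those of the highest CPM per kb, and the 5 genes with the profile nearest to that of the member with the smallest p. Alternatives were RLE size factors, library size only, no filter, a stricter filter (10 counts or more in each library), the replicate number as a block, each library left out, DESeq2 1.42.0, limma-voom (limma 3.58.1), thinning to the smallest total, removal of each library's GC trend (GC known for 91.3% of loci kept), other thresholds and, chosen after seeing the data, an earlier edgeR dispersion and another transcript length.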

Additional observations from a re-analysis of the deposited data

How the results depend on the processing

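Of the 10 genes, 0 were called in all 16 alternative fits (edgeR, DESeq2 and limma), with 1 at an unadjusted p under 0.05 in the edgeR fit reported, and the smallest adjusted p was 0.0818, for SMAD2 with the GC trend removed (edgeR quasi-likelihood, Benjamini-Hochberg; range over its alternatives 0.0818 to 0.694). Directions turned for SMAD3, at 0.0197 with library size only, 0.00216 with thinning, 0.0111 with the GC trend removed and -0.0333 to 0.0326 with a library left out. With a library left out the log2 fold change also turned for TGFB1 (-0.194 to 0.0451), TGFB3 (-0.223 to 0.0728), TGFBR3 (-0.287 to 0.00850), ITGAV (-0.111 to 0.112) and BMPR2 (-0.00833 to 0.126). The same held for ACVR1B (-0.159 to 0.0244), COL1A1 (-0.0935 to 0.126) and FSIP1 (-0.263 to 0.184). Loci called higher and lower, 150 and 202, were 256 and 379 with DESeq2, 468 and 570 with the GC trend removed, 84 and 52 with a fold change over 2 and unadjusted p under 0.01, and 39 to 323 and 65 to 360 with a library left out. In the pathway lists, 5 and 5 became 8 and 8, 9 and 10, 1 and 0, and 2 to 11 and 1 to 9 in the same order, and library size only gave 3 lower. With the replicate block 97 loci were higher and 119 lower, and 3 genes of the lists were lower. Libraries of the same number showed no sign of varying together (r = -0.0896, -0.0517 and -0.00471 across genes, which are not independent replicates). With values centred within groups of 3 libraries, this check cannot show that the samples were unpaired. The medians of the 20 nearest genes were -0.00206 for TGFB3, 0.0514 for SMAD2 and 0.00984 for SMAD7, where 40 gave -0.03 for each. The cause was not tested for any of these. With 3 libraries a group an exact permutation test of 1 value cannot go below p = 0.1. The counts of TGFB3, between 38 and 82, limit its precision.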
